A study of Rattus norvegicus with 12 samples.

Results

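The nuclei described here are those that the authors assigned to PST(Spp1+), a cluster of the proximal straight tubule named after Spp1, in single-nucleus RNA sequencing of kidneys from 12 ZSF1 rats. The cluster was taken from the cluster name that the deposited table gives each nucleus, and it held 14376 of 217132 nuclei, or 6.62% of all nuclei and 10.9% of the 131671 nuclei in the 8 proximal tubule clusters. It was the 4th largest of 25 clusters. The authors' broader cell types placed 14375 of its nuclei in the proximal tubule and 1 in the loop of Henle. Levels of Spp1 and other genes in these nuclei were not analysed here, so the name could not be checked against its marker, and the measurements below are how many such nuclei each rat had, their transcript content, their mitochondrial fraction, their cell-cycle scores and their place in the authors' map.

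All rats were male and labelled ZSF1-LeprfaLeprcp/Crl, a strain with leptin receptor mutations whose obese form develops diabetes and kidney disease. Sequencing covered 4 groups of 3 rats: untreated lean rats (Lean), obese rats given vehicle (Obese), obese rats given the soluble guanylate cyclase (sGC) activator BAY 1101042, or runcaciguat, with 2 daily doses of 3 mg/kg (Obese+sGCact), and obese rats given the sGC stimulator BAY 1165747 with 1 daily dose of 3 mg/kg (Obese+sGCstim). Dosing lasted 12 weeks. Obese rats started treatment at 13 to 14 weeks of age and were therefore 25 to 26 weeks old at the end. The sequenced rats came from 6 lean animals and from 10 animals per obese group, and lean animals received no vehicle, so genotype and dosing cannot be told apart between Lean and Obese. Each rat is named as in the deposited table, and its tissue was a piece of frozen kidney of which 10000 nuclei were loaded per library.

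The straight part of the proximal tubule runs from the cortex into the outer medulla, reabsorbs filtered solutes, secretes organic anions and is among the tubule segments most easily damaged when oxygen is short. Spp1 encodes osteopontin, a secreted phosphoprotein that tubule cells make in larger amounts after injury and that attracts and activates immune cells. sGC makes cGMP in response to nitric oxide. Stimulators depend on its heme being in the reduced state, and activators act preferentially on the enzyme whose heme is oxidized or lost. Mitochondrial transcripts are made outside the nucleus, so those found in a nuclei library come from cytoplasm carried along with the nuclei or from free RNA.

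Libraries differed in ways that bear on every value below. The retained nuclei of a rat numbered 10488 to 43484, above the 10000 loaded in every rat, and held 11898496 to 49272672 unique molecular identifiers (UMIs, each standing for 1 captured transcript) in all. Median UMIs per nucleus were 1688 to 2914 in the lean rats and 783 to 1392 in the Obese rats, with no overlap. Rat RK9_4 of the Obese group had 43484 nuclei, of which 69.4% were in PST, the main proximal straight tubule cluster. Of the cluster's barcodes, 900 (6.26%) also occurred in another rat, against 5.42% of all nuclei in the table, and 40 occurred within the cluster in more than 1 rat.

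PST(Spp1+) nuclei were present in every rat but unevenly. Among the lean rats there were 185 in RK1_4, 72 in RK3_4 and 93 in RK5_4. The Obese rats had 189 in RK7_4, 70 in RK9_4 and 364 in RK16_4. Under sGCact there were 2925 in RK43_4, 3040 in RK45_4 and 125 in RK46_4, and under sGCstim 67 in RK57_4, 341 in RK58_4 and 6905 in RK61_4. Under sGCact, RK43_4 and RK45_4 thus had many such nuclei and RK46_4 as few as the lean rats. Under sGCstim only RK61_4 had many, RK57_4 had as few as the lean rats, and RK58_4 had more than every lean rat. Together, 9 of the 12 rats gave 1506 of the 14376 nuclei.

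As a share of all nuclei of a rat, the cluster made up 1.11%, 0.475% and 0.550% in the lean rats RK1_4, RK3_4 and RK5_4 (mean 0.711 ± 0.347%, SD, n = 3). In the Obese rats RK7_4, RK9_4 and RK16_4 the shares were 1.79%, 0.161% and 2.77% (mean 1.58 ± 1.32%, SD, n = 3). In RK43_4, RK45_4 and RK46_4, given sGCact, they were 13.8%, 14.1% and 1.19% (mean 9.68 ± 7.35%, SD, n = 3). RK57_4, RK58_4 and RK61_4, given sGCstim, had 0.542%, 2.78% and 29.6% (mean 11.0 ± 16.2%, SD, n = 3). The highest share was 184 times the lowest, and the range of the Obese rats overlapped that of each other group. Counting error was small beside this: the Wilson 95% interval was 29.1% to 30.2% in RK61_4 and 0.127% to 0.203% in RK9_4. The SD of the log odds within groups was 1.55, the 2nd largest of the 25 clusters.

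**Figure D1:**
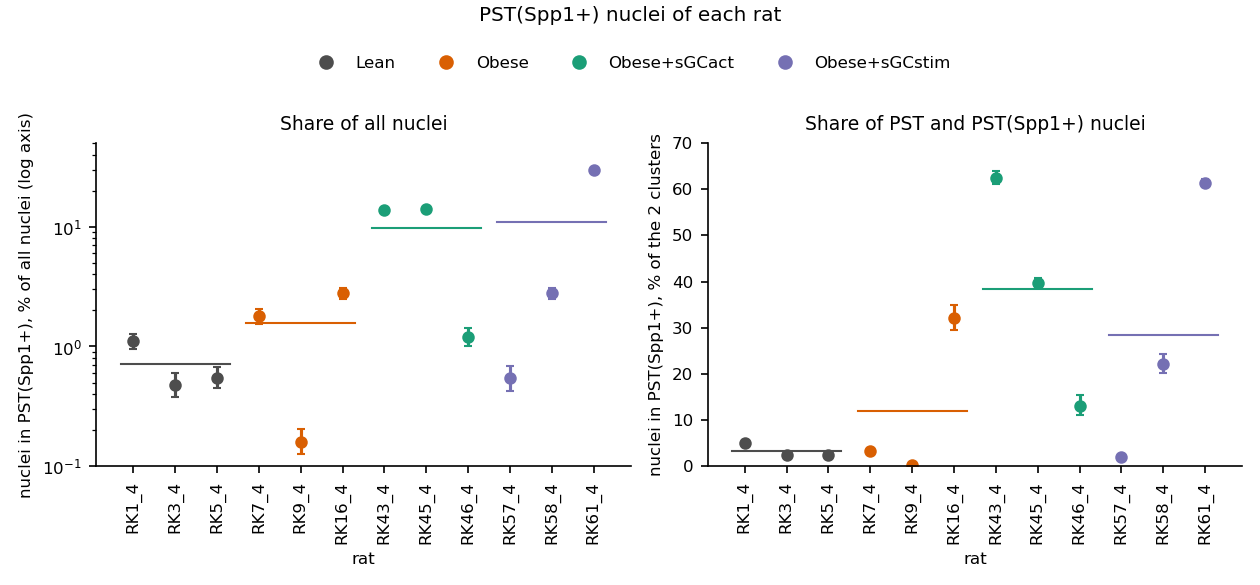
Each point is a rat, coloured by group, with its Wilson 95% interval; the left axis gives PST(Spp1+) nuclei in % of all nuclei of the rat on a log scale and the right axis in % of PST and PST(Spp1+) nuclei together, and horizontal lines are group means. RK43_4, RK45_4 and RK61_4 lie at 13.8% to 29.6% of all nuclei, while the other 9 rats, from all 4 groups, lie at or below 2.78%.

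No comparison between groups passed the threshold for the share of all nuclei. Log odds of the share were tested by limma over the 25 clusters with all 4 groups in the fit, and an exact two-sided permutation test was run beside it, for which 3 rats against 3 cannot give a p below 0.1. Obese rats differed from Lean rats by 0.35 in log odds (SE 1.06, 95% interval -1.95 to 2.64, limma adjusted p = 0.815; exact permutation p = 0.4, n = 3 per group), and 12% of the 25 clusters passed in that comparison. Obese+sGCact was above Obese in 7 of 9 pairs of rats, by 1.97 in log odds (SE 1.06, interval -0.32 to 4.27, limma adjusted p = 0.496; exact permutation p = 0.3, n = 3 per group). Obese+sGCstim was above Obese in 7 of 9 pairs, by 1.45 (SE 1.06, interval -0.84 to 3.75, limma adjusted p = 0.677; exact permutation p = 0.4, n = 3 per group). In both treatment comparisons 0% of the 25 clusters passed by limma, 0 at an unadjusted p under 0.05, and edgeR also called 0, with 0 to 6 at an unadjusted p under 0.05. These intervals include changes of several-fold in either direction for Obese against Lean, so a change of that size was not detectable with 3 rats per group. Without RK16_4 the Obese minus Lean difference turned to -0.21 in log odds, and without RK46_4 the sGCact difference was the largest of those leaving out 1 rat, 2.84.

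The daily dose differed between the drugs, so their values stand side by side and are not matched for dose. Obese+sGCact and Obese+sGCstim differed by 0.52 in log odds (SE 1.06, interval -1.78 to 2.82, limma adjusted p = 0.964; exact permutation p = 0.9, n = 3 per group), and here too 0% of the clusters passed by limma, with 0 at an unadjusted p under 0.05. With edgeR the sign of this difference was the opposite (-0.30 with TMM and -0.18 with the total as library size, on the log2 scale).

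Measured against the other nuclei of its own tubule, the cluster kept the same uneven spread. It made up 2.87%, 1.04% and 1.45% of proximal tubule nuclei in the lean rats RK1_4, RK3_4 and RK5_4 and 2.36%, 0.175% and 7.34% in the Obese rats RK7_4, RK9_4 and RK16_4. The shares were 24.2%, 20.1% and 3.66% in RK43_4, RK45_4 and RK46_4 under sGCact, and 1.04%, 6.23% and 42.0% in RK57_4, RK58_4 and RK61_4 under sGCstim. The treated rats RK46_4, RK57_4 and RK58_4 lay within the range of the Obese rats. By limma over the 8 proximal tubule clusters the adjusted p was 0.971 for Obese against Lean, 0.256 for Obese+sGCact against Obese, 0.737 for Obese+sGCstim against Obese and 0.621 between the treatments. In Obese against Lean 12.5% of these clusters passed, and in the other comparisons 0% passed by limma, with 0 at an unadjusted p under 0.05.

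Of the straight tubule nuclei in PST and PST(Spp1+) together, PST(Spp1+) held 4.96%, 2.45% and 2.38% in the lean rats. It held 3.37% in RK7_4, 0.231% in RK9_4 and 32.2% in RK16_4, all Obese. Under sGCact it held 62.5% in RK43_4, 39.6% in RK45_4 and 13.1% in RK46_4, and under sGCstim 1.97% in RK57_4, 22.2% in RK58_4 and 61.3% in RK61_4. In RK43_4 and RK61_4 the named subcluster therefore outnumbered the main straight tubule cluster, with 167 and 158 of its nuclei per 100 PST nuclei, while RK9_4 had 0.232 per 100. Exact permutation p-values (n = 3 per group) were 0.8 for Obese against Lean, 0.2 for Obese+sGCact against Obese, 0.6 for Obese+sGCstim against Obese and 0.7 between the treatments, each 0.8 after adjustment over the 4 comparisons.

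The rat with the smallest PST(Spp1+) share had the largest share of PCT(Spp1+), the convoluted tubule cluster with the same marker in its name: in RK9_4, 0.161% of nuclei were in PST(Spp1+) and 9.55% in PCT(Spp1+). RK61_4 was high in both, with 29.6% and 6.83%. In RK43_4 and RK45_4, where PST(Spp1+) reached 13.8% and 14.1%, PCT(Spp1+) was 1.16% and 0.875%, and in the remaining 8 rats it was 0.192% to 1.40%. Both clusters drew most of their nuclei from 3 rats, 89.5% for PST(Spp1+) and 88.6% for PCT(Spp1+), and RK61_4 and RK43_4 were among the 3 for both.

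PST(Spp1+) nuclei carried few transcripts. Pooled over rats, their median of 801 UMIs was the lowest of the 25 clusters, their interquartile range was 715 to 863 UMIs, and their coefficient of variation, 26.0%, was the smallest of the 25. Median expressed genes were 608, the 2nd lowest. These ranks weigh nuclei and not rats, and 89.5% of the nuclei were from RK43_4, RK45_4 and RK61_4, whose nuclei of all clusters had medians of 961 to 1149.5 UMIs. Of the 14376 nuclei, 1001 (6.96%) had 1000 UMIs or more. Other proximal tubule clusters came close. PTnov1 nuclei had a median of 857 UMIs, 604 genes and a coefficient of variation of 27.2%. PCT(Spp1+) nuclei had medians of 870 UMIs and 628 genes, with a coefficient of 33.4%. PST nuclei had a median of 963 UMIs over all rats, and the authors removed the UMI total of a nucleus as a covariate before they clustered.

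By rat, median UMIs of PST(Spp1+) nuclei were 1080, 880.5 and 1408 in the lean rats RK1_4, RK3_4 and RK5_4, beside 4047, 3220 and 2226 in their PST nuclei. In the Obese rats RK7_4, RK9_4 and RK16_4 they were 625, 950.5 and 821, beside 639, 887 and 1810. In RK43_4, RK45_4 and RK46_4 under sGCact they were 718, 703 and 854, beside 2301, 739 and 2221. RK57_4, RK58_4 and RK61_4 under sGCstim had 1409, 900 and 832, beside 2152, 1832 and 1908.5. The cluster thus had fewer UMIs than PST in 11 of 12 rats, RK9_4 being the exception. The gap ran from 0.267 times the PST median in RK1_4 to 1.07 times in RK9_4, and it nearly closed in RK7_4 and RK45_4, at 0.978 and 0.951 times. In those 3 rats without a clear gap the PST nuclei themselves were shallow.

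**Figure D2:**
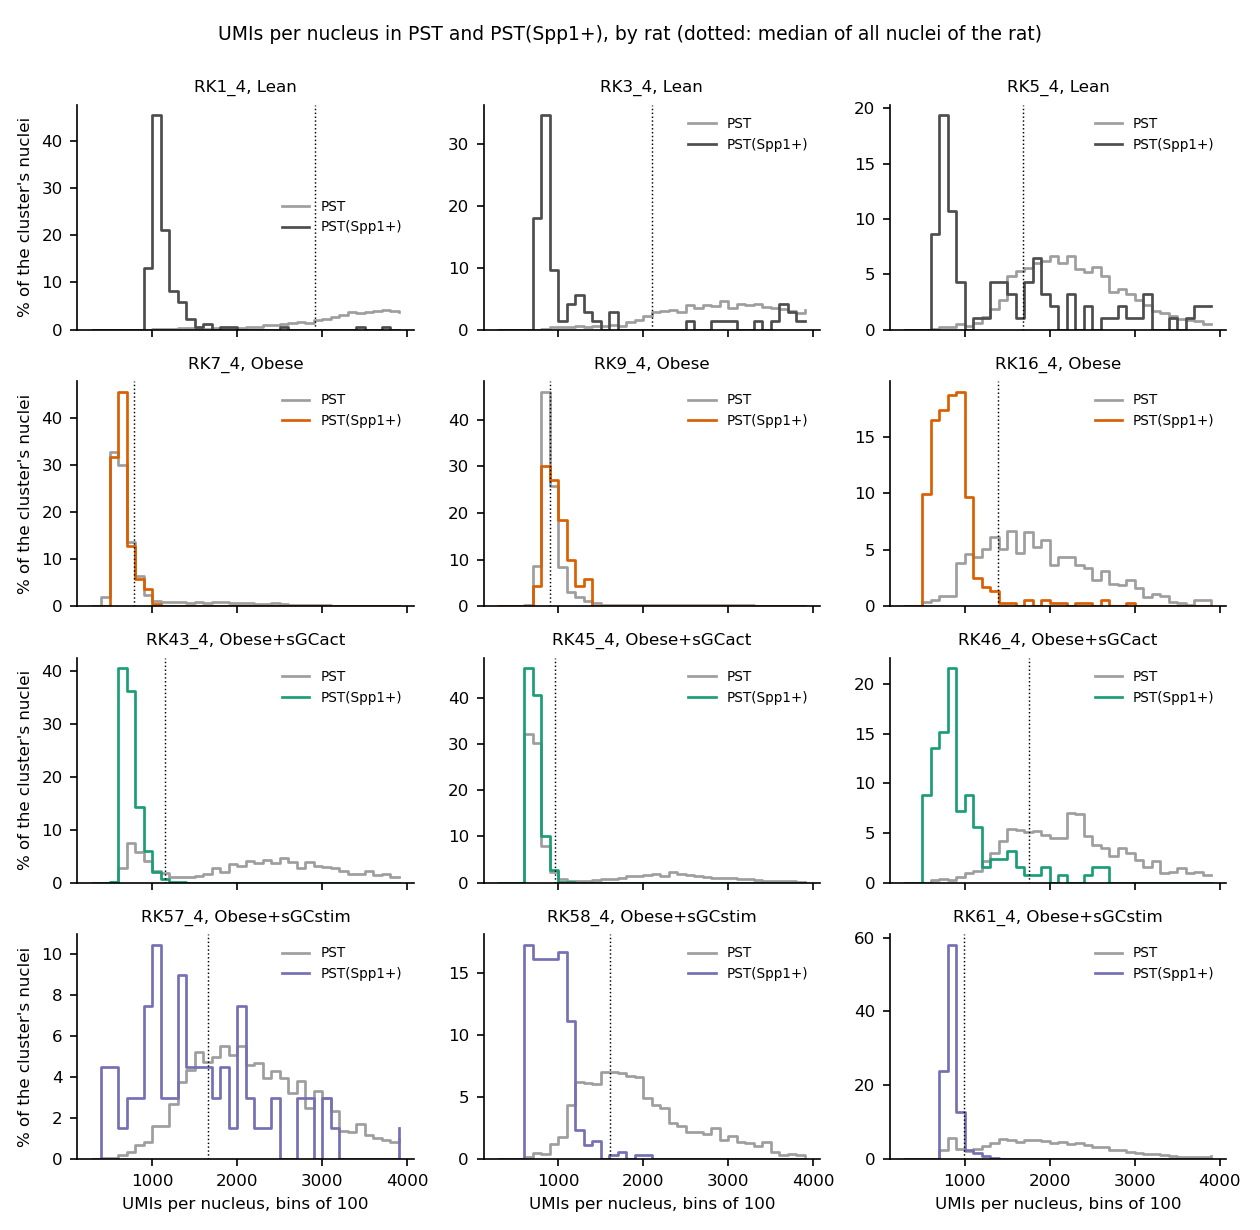
Each panel is a rat and shows the distribution of UMIs per nucleus in bins of 100 up to 4000 for PST (grey) and PST(Spp1+) (group colour), in % of the nuclei of each cluster, with its own vertical scale; the dotted line is the median of all nuclei of the rat. PST(Spp1+) forms a narrow peak at low UMIs in most rats and spreads up to the PST range in RK5_4 and RK57_4 and, with a minority of its nuclei, in RK3_4. In RK7_4, RK9_4 and RK45_4 most PST nuclei fall in the same narrow peak.

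The width of these distributions also differed by rat. In RK45_4 the interquartile range of the PST(Spp1+) nuclei was 679 to 747 UMIs, just above the 622 of the rat's shallowest nucleus, with a coefficient of variation of 9.09%. In RK61_4 and RK43_4 the interquartile ranges were 801 to 880 and 677 to 791, with coefficients of 11.8% and 13.2%. In RK5_4 and RK57_4, by contrast, the interquartile ranges ran from 775 to 2229 and from 1022.5 to 2022.5, with coefficients of 62.8% and 48.6%, and in RK3_4 the coefficient was 75.4%. The coefficient was smaller than in PST in 7 of 12 rats and larger in the 3 lean rats, RK46_4 and RK57_4. Of PST(Spp1+) nuclei, 98.4% in RK1_4, 92.7% in RK58_4, 83.0% in RK16_4 and 80.8% in RK46_4 lay below the 25th percentile of UMIs of all nuclei of their own rat, against 2.11%, 7.85%, 6.79% and 3.63% of PST nuclei. In RK9_4 the share was lower than in PST, 14.3% against 27.2%.

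Between groups, median UMIs of the cluster were lower in Obese than in Lean in 8 of 9 pairs of rats, but the difference of -0.49 on the log2 scale did not pass (SE 0.28, interval -1.07 to 0.10, limma adjusted p = 0.193; exact permutation p = 0.2, n = 3 per group). Of the 24 clusters with enough nuclei, 16.7% passed. The difference was above 0 in 0 of the 24 clusters. With the mean over nuclei in place of the median the difference was -0.77 and passed (limma adjusted p = 0.0441), and 5 of the 24 clusters passed. Differences were -0.06 for Obese+sGCact against Obese (limma adjusted p = 0.909, 8.33% of clusters passing), 0.37 for Obese+sGCstim against Obese (limma adjusted p = 0.957, 0% passing by limma and 1 cluster at an unadjusted p under 0.05) and -0.43 between the treatments (limma adjusted p = 0.551, 4.17% passing).

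Expressed genes followed the UMIs only in part. RK9_4 had a median of 950.5 UMIs, above the 880.5 of RK3_4 and the 821 of RK16_4, but fewer genes than both. Median genes per PST(Spp1+) nucleus were 823, 687.5 and 956 in the lean rats and 461, 637 and 654 in the Obese rats, so that the groups did not overlap (exact permutation p = 0.1, the smallest that n = 3 per group allows). Of the 23 clusters measured in all 6 rats, 21.7% were likewise lower in every Obese rat. The medians of all nuclei of these rats also did not overlap in UMIs, and the part of library depth in this difference was not tested. Under sGCact the medians were 560, 554 and 670 genes and under sGCstim 966, 706 and 627.

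Many of these nuclei also carried mitochondrial transcripts. Pooled over rats, and so weighted to the same 3 rats, their median mitochondrial fraction was 4.78% of UMIs, the 2nd highest of the 25 clusters after PTnov1 (7.07%), with 2.17% in PST, 3.11% in PCT(Spp1+) and 0.0530% in PTinj, the injured proximal tubule cluster. In 79.2% of the nuclei the fraction was at least 3%, and 486 nuclei (3.38%) had at most 1%. With a median depth of 832 UMIs, the nuclei of RK61_4 carried a median of 46 mitochondrial UMIs, and those of RK43_4 and RK45_4 carried 35 and 22.

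By rat, the median mitochondrial fraction was 2.49%, 3.32% and 0% in the lean rats RK1_4, RK3_4 and RK5_4, beside 0.0235%, 0.0277% and 0% in their PST nuclei. It was 6.96%, 4.62% and 2.72% in the Obese rats RK7_4, RK9_4 and RK16_4, beside 5.33%, 4.28% and 0.0837%. Under sGCact it was 4.83%, 3.00% and 1.18% in RK43_4, RK45_4 and RK46_4, beside 0.0583%, 2.03% and 0%, and under sGCstim 0%, 0.304% and 5.53% in RK57_4, RK58_4 and RK61_4, beside 0%, 0% and 0.0763%. The cluster exceeded PST in 10 of 12 rats and equalled it, at a median of 0%, in RK5_4 and RK57_4. In these rats many nuclei also reached the UMIs of PST, as the plot of UMI distributions shows. No mitochondrial UMI was found in 52 of 93 nuclei in RK5_4 and 55 of 67 in RK57_4, against 2 of 6905 in RK61_4. Like fractions were found in other clusters of some rats: in RK61_4, PCT(Spp1+) nuclei had a median of 5.39% at 827 UMIs, against 5.53% at 832 UMIs in PST(Spp1+).

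**Figure D3:**
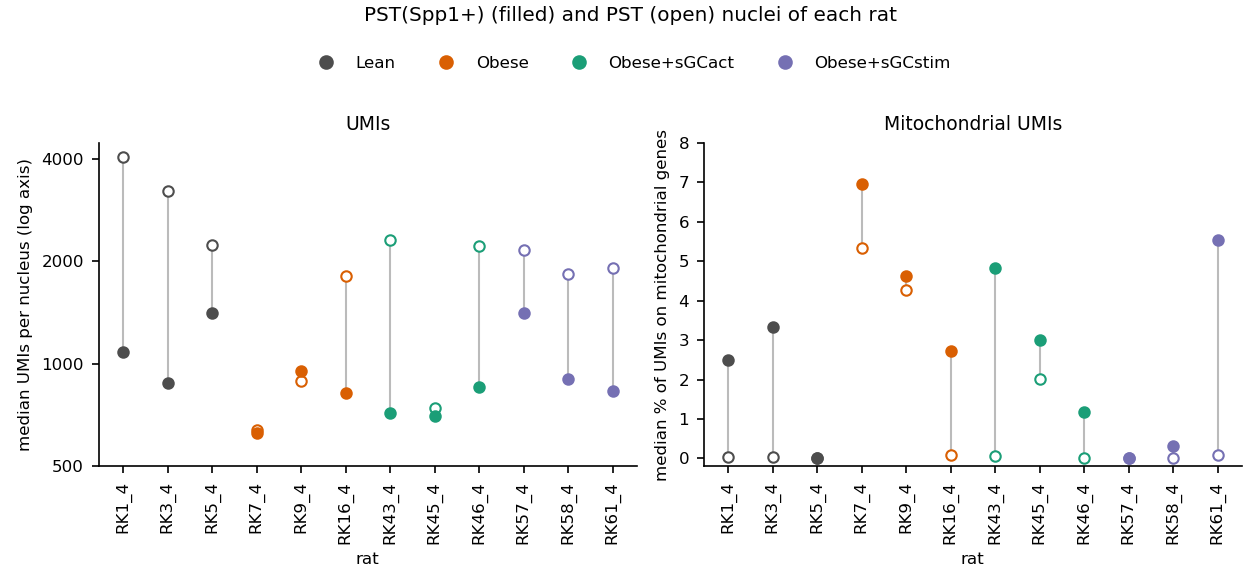
For each rat, filled points are PST(Spp1+) and open points PST nuclei, joined by a line; the left axis is the median UMIs per nucleus on a log scale and the right axis the median % of UMIs on mitochondrial genes, with colours for the 4 groups. PST(Spp1+) lies below PST in UMIs in 11 rats and above it in mitochondrial fraction in 10, and the UMI gap is small in RK7_4, RK9_4 and RK45_4, where PST nuclei also had 2.03% to 5.33% mitochondrial UMIs.

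No group comparison of the mitochondrial fraction passed. On the log2(percentage + 0.1) scale, which understates changes of low percentages, Obese exceeded Lean by 2.24 (SE 1.55, interval -1.17 to 5.65, limma adjusted p = 0.705; exact permutation p = 0.2, n = 3 per group), with 0% of 24 clusters passing by limma and 2 at an unadjusted p under 0.05. The difference was -0.76 for Obese+sGCact against Obese (limma adjusted p = 0.915, with 4.17% of clusters passing) and -2.90 for Obese+sGCstim against Obese (limma adjusted p = 0.453, with 0% passing by limma and 2 clusters at an unadjusted p under 0.05). Between the treatments it was 2.14 (limma adjusted p = 0.709, with 4.17% passing).

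The mitochondrial fraction was then compared in a narrower range of depth, among nuclei with at least 500 and under 1000 UMIs, a range that held 94.7% of PST(Spp1+) nuclei in RK61_4, 97.2% in RK43_4 and 99.8% in RK45_4. In this range PST(Spp1+) nuclei had a median of 5.50% mitochondrial UMIs in RK61_4 against 5.35% in 483 PST nuclei, 4.82% in RK43_4 against 2.51% in 355 PST nuclei, and 3.00% in RK45_4 against 2.58% in 3356 PST nuclei. In RK7_4 the values were 6.95% against 6.11%, and in RK9_4 5.03% against 4.26%. In RK61_4, RK45_4, RK7_4 and RK9_4, the rats with the most PST nuclei in this range, the cluster was thus only slightly above PST, and in RK43_4 the gap was wider. In the rats with few PST nuclei in the range the values were 2.86% against 0.403% in RK16_4 (50 PST nuclei), 1.95% against 0% in RK5_4 (39), 0.556% against 0.0511% in RK58_4 (28), 3.43% against 0.106% in RK3_4 (16) and 1.56% against 0% in RK46_4 (12). In these 5 rats PST(Spp1+) nuclei were also shallower than PST within the range, with medians of 754 to 838 UMIs against 856.5 to 943. The same held in RK43_4, with 716 against 796 UMIs. In mitochondrial fraction the cluster was above PST in 10 rats, while RK57_4 had 0% in both and RK1_4 had no PST nucleus in the range.

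The cluster to which shallow straight tubule nuclei were assigned differed by rat. Of the PST and PST(Spp1+) nuclei in this range of UMIs, PST(Spp1+) took 93.1% in RK61_4, 88.9% in RK43_4, 88.9% in RK58_4, 87.4% in RK46_4, 85.5% in RK16_4, 73.8% in RK3_4 and 50.6% in RK5_4. RK1_4 had 24 such straight tubule nuclei, all in PST(Spp1+). The cluster took 47.5% in RK45_4, 15.7% in RK57_4, 3.91% in RK7_4 and 0.176% in RK9_4. In RK7_4 and RK9_4 nearly all of these nuclei were thus PST, 4615 and 24344, while RK61_4 and RK43_4 had 483 and 355 PST nuclei in the range.

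The proximal tubule nuclei with at least 3% mitochondrial UMIs showed a like split. RK61_4 had 10609 of them, of which 64.3% were in PST(Spp1+) and 4.98% in PST. RK43_4 had 4779, with 53.1% in PST(Spp1+) and 3.03% in PST, and RK45_4 had 3891, with 39.0% and 34.8%. In the Obese rats RK7_4 and RK9_4 the division was the other way, with 4.04% and 0.221% in PST(Spp1+) against 85.9% and 81.9% in PST, of 4454 and 24889 nuclei. RK16_4, the third Obese rat, had 676 such nuclei, of which 21.0% were in PST(Spp1+) and 0.740% in PST. In RK16_4 and the other 6 rats, PTnov1 held the largest part, 49.4% to 92.9%.

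**Figure D4:**
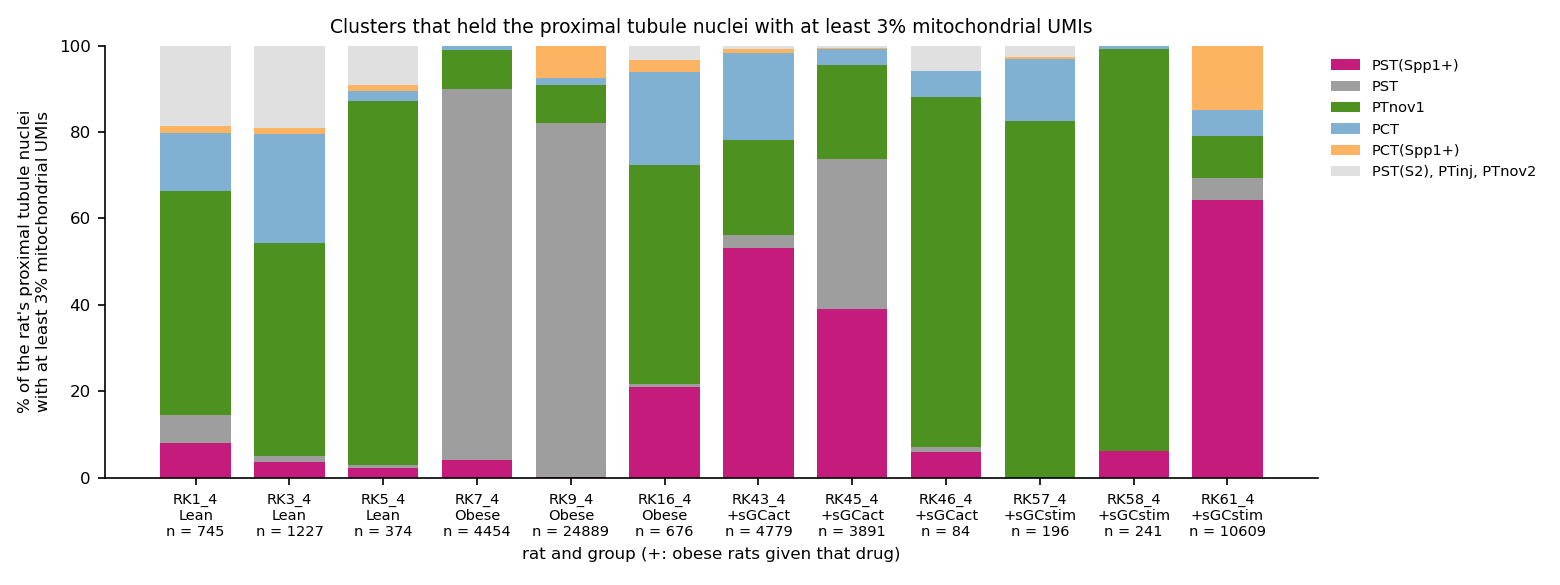
Each bar is a rat and divides its proximal tubule nuclei with at least 3% mitochondrial UMIs (number under the bar) by cluster, in % on an axis from 0 to 100. PST(Spp1+) is the largest part in RK43_4, RK45_4 and RK61_4, PST in RK7_4 and RK9_4, and PTnov1 in the other 7 rats.

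The share of PST(Spp1+) therefore depended on which nuclei were counted. With at least 1000 UMIs required, it was 0.682% in RK43_4, 0.0478% in RK45_4 and 3.17% in RK61_4, against 13.8%, 14.1% and 29.6% without this filter. Lean rats then had 0.972%, 0.197% and 0.365%. With at most 1% mitochondrial UMIs required, RK43_4 kept 2 nuclei of the cluster, RK45_4 20 and RK61_4 2, while RK58_4 kept 241 and had the highest share, 2.06%. In RK7_4 and RK9_4 that filter left none, 0 of 4685 and 0 of 7173 nuclei, and a count of 0 at these depths is compatible with shares up to 0.0640% and 0.0418%. Neither filter gave a group difference past the threshold by limma, and both turned the sign of Obese minus Lean, to -0.83 in log odds with at least 1000 UMIs and -1.65 with at most 1% mitochondrial UMIs.

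In the authors' 2-dimensional map, PST(Spp1+) nuclei lay beside PST nuclei more than beside those of any other cluster, their own included. Of the 15 nearest nuclei of each of its nuclei, 40.8% on average were in PST(Spp1+) and 58.2% in PST. PTnov1 followed with 0.405%, PCT with 0.224% and PTinj with 0.0376%, and PCT(Spp1+) gave 0%. By rat, own-cluster neighbours ranged from 15.7% in RK57_4 to 48.0% in RK61_4. Of the nearest nuclei of PST nuclei, 1.98% (RK16_4) to 19.2% (RK7_4) were in PST(Spp1+). Such maps keep near neighbours better than distances. These shares depend on how many nuclei each cluster has, 14376 in PST(Spp1+) and 62692 in PST.

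Neighbours also tended to be from the same rat. For RK61_4, 41.4% of the neighbours of its PST(Spp1+) nuclei were from RK61_4, which gave 10.7% of all nuclei and 14.6% of PST and PST(Spp1+) nuclei. For RK43_4 the figures were 28.6%, 9.78% and 6.07%, for RK45_4 14.7%, 9.95% and 9.95%, and for RK9_4 50.5%, 20.0% and 39.2%. The nuclei of the 3 rats that dominated the cluster lay in different places, with median coordinates of 7.56 and -5.35 in RK61_4, 7.25 and -8.23 in RK43_4 and 6.05 and -6.89 in RK45_4. Whether these shares exceed what the make-up of the cluster gives was not tested.

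**Figure D5:**
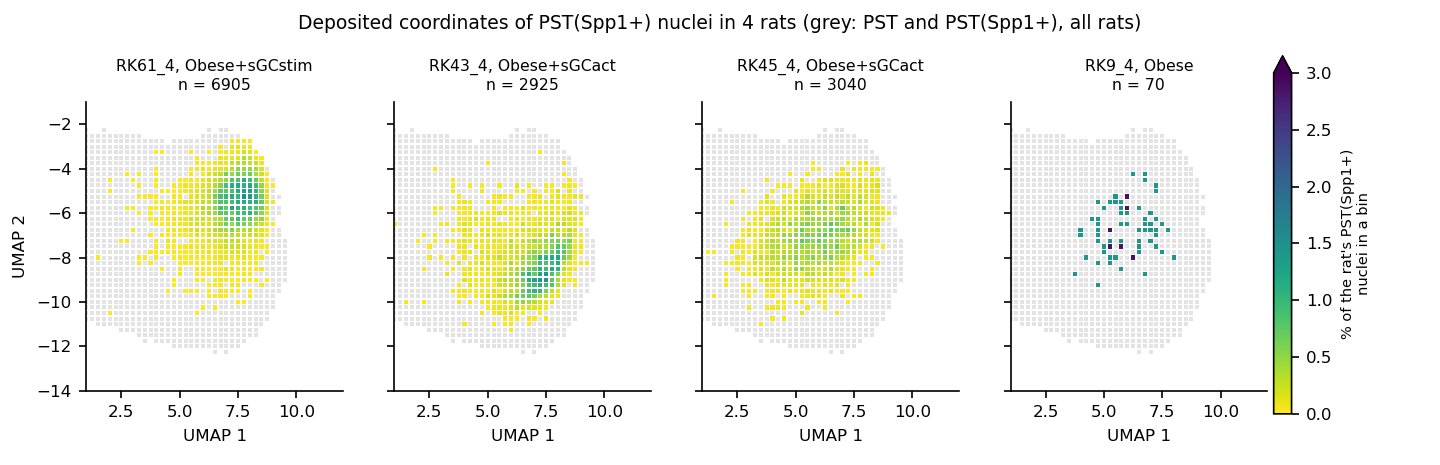
Panels show the deposited UMAP coordinates (no unit) of PST(Spp1+) nuclei in 4 rats, binned at 0.25, with the colour giving the % of the rat's PST(Spp1+) nuclei in a bin and grey marking bins that held any PST or PST(Spp1+) nucleus. The nuclei of RK61_4 centre near 7.56 and -5.35 and those of RK43_4 near 7.25 and -8.23, while those of RK45_4 and the 70 of RK9_4 centre between them on the vertical axis; the few nuclei outside the drawn range are not shown.

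Cell-cycle scores, which the authors computed per nucleus from lists of S and G2M phase genes, have no unit and no fixed range. The mean G2M score of PST(Spp1+) nuclei was -0.00429, -0.00952 and -0.0149 in the lean rats RK1_4, RK3_4 and RK5_4. It was 0.00693, 0.00325 and 0.00220 in the Obese rats RK7_4, RK9_4 and RK16_4, above every lean rat. Under sGCact it was -0.00430, -0.00335 and 0.00184, below every Obese rat, and under sGCstim -0.00836, 0.00915 and 0.00723, on both sides of them. Differences between rats were small beside those between nuclei of a rat, whose SD was 0.0341 to 0.0654.

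The G2M score was higher in Obese than in Lean by 0.0137 (SE 0.00445, interval 0.00393 to 0.0235, limma adjusted p = 0.0409; exact permutation p = 0.1, n = 3 per group), in 9 of 9 pairs of rats. This was common among clusters: 25% of the 24 tested passed, all of them higher in Obese, 30.4% of the 23 measured in every rat had no overlap in this direction, and the difference was above 0 in 19 of the 24. PST itself differed by 0.0198 (limma adjusted p = 0.00579) and PTinj by 0.0130 (limma adjusted p = 0.0239). The call was lost when RK3_4, RK5_4, RK7_4, RK9_4, RK43_4 or RK46_4 was left out (limma adjusted p = 0.0506 to 0.144), with the median over nuclei (adjusted p = 0.497) and among nuclei with at least 500 and under 1000 UMIs (0.00863, adjusted p = 0.121). Depth moved with it, since the Obese rats had 783 to 1392 UMIs per nucleus at the median against 1688 to 2914 in Lean, and a score at equal depth could not be computed without counts per gene, so the part of depth was not tested.

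The lower G2M score under sGCact than in Obese, -0.00607, held in 9 of 9 pairs of rats but did not pass (interval -0.0158 to 0.00370, limma adjusted p = 0.436; exact permutation p = 0.1, n = 3 per group). Of 22 clusters measured in these 6 rats, 31.8% had no overlap in the same direction, and 0% of the 24 passed by limma, with 7 at an unadjusted p under 0.05. Obese+sGCstim differed from Obese by -0.00146 (limma adjusted p = 0.947) and sGCact from sGCstim by -0.00461 (limma adjusted p = 0.595), with 3 and 4 clusters at an unadjusted p under 0.05 and 0% passing by limma. Within rats, the G2M score was above that of PST in 11 of 12, RK9_4 again being the exception, with gaps of 0.00110 to 0.0176 in the others. This was not particular to PST(Spp1+), since PCT(Spp1+) was above PST in every rat except RK46_4 (-0.00804 against -0.00768). In RK61_4 the means were 0.00710 in PCT(Spp1+), 0.00723 in PST(Spp1+) and -0.00420 in PST. Pooled over nuclei, PCT(Spp1+) had the highest mean of the 25 clusters, 0.00540, and PST(Spp1+) had 0.00205.

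S scores did not pass in any comparison. Their means were -0.000342, 0.00818 and -0.00372 in the lean rats, 0.00277, -0.00735 and -0.00456 in the Obese rats, -0.00209, -0.00127 and 0.00335 under sGCact and 0.00597, 0.00175 and -0.000518 under sGCstim. The 4 groups overlapped. Obese differed from Lean by -0.00442 (limma adjusted p = 0.806), Obese+sGCact from Obese by 0.00304 (0.741), Obese+sGCstim from Obese by 0.00545 (0.360), and sGCact from sGCstim by -0.00241 (0.610), all by limma, with 0% of clusters passing and 2 to 5 at an unadjusted p under 0.05. By the authors' phase calls, 38.5% to 42.9% of PST(Spp1+) nuclei were called G2M in the Obese rats and 26.4% to 29.7% in the lean rats. These groups did not overlap (exact permutation p = 0.1, n = 3 per group, 0.2 adjusted over the 4 comparisons). Under sGCact 32.7% to 36.0% were called G2M, below every Obese rat, and under sGCstim 26.9% to 43.4%. The share of clusters without overlap in G2M calls was not computed, so neither separation can be called particular to this cluster. For the mean G2M score, a different measure, it was 30.4% of 23 for Obese against Lean. For Obese+sGCact below Obese it was 31.8% of 22 in that score. S was called in 30.2%, 30.0% and 23.1% of PST(Spp1+) nuclei in the Obese rats and in 36.8%, 45.8% and 35.5% in the lean rats, again without overlap (exact permutation p = 0.1, n = 3 per group, 0.133 adjusted over the 4 comparisons), as in 21.7% of 23 clusters. Under sGCact S was called in 27.1%, 26.6% and 30.4%, and under sGCstim in 38.8%, 31.4% and 30.8%, above every Obese and every sGCact rat (exact permutation p = 0.1 for each, n = 3 per group), as in 21.7% of 23 and 13.6% of 22 clusters. These calls rest on the same scores and no cycling is read from them.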

How the data were processed

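Nuclei from 12 rat kidneys were sequenced in droplets with UMIs. The authors aligned reads with Cell Ranger (version 6 per the submitters' processing notes; the paper names another version) to rn6 with introns, corrected ambient RNA, removed doublets with DoubletFinder, kept nuclei with 200 to 3000 genes and at most 15% mitochondrial UMIs, merged the rats with Seurat, regressed out UMI totals, corrected batches with Harmony and clustered. UMIs and genes per nucleus are deposited as counts by the authors, who corrected the count matrices for ambient RNA before merging the rats. Whether these are raw counts or counts after that correction is not stated. The mitochondrial measure is deposited as a percent of UMIs by the authors, and phase values as scores by the authors. All columns were used (0 unused). The table names rats by identifiers without replicate numbers, and each rat's group is that of the table.

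Per rat, shares were converted to log odds (0.5 nuclei added to the cluster, 1 to the total), UMIs to log2 medians, mitochondrial percentages to log2(median + 0.1) and scores to means, for clusters with at least 10 nuclei in a rat. Each was fitted across clusters with limma 3.58.1 (R 4.3.3) over all 4 groups, with Benjamini-Hochberg adjustment per contrast and a threshold of 0.05. Exact two-sided permutation tests of means were run over 20 splits of 3 rats against 3. The share of PST and PST(Spp1+) nuclei had the exact test alone. Scripts were tested on simulated data. PST(Spp1+) was compared with PST as a description only, since both were defined on the same nuclei. Alternatives, including edgeR 4.0.16, other filters and each rat left out, are given below. Wilson intervals (95%) and the limit for a count of 0 (3 counts) cover counting error only.

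Named clusters are PST(Spp1+), PST, PCT(Spp1+), PTinj and the 3 with the most nearest neighbours. Clusters, lists and comparisons were chosen with earlier results of these data known.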

Additional observations from a re-analysis of the deposited data

How the results depend on the processing

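No paired analysis was possible because the groups held different rats and the deposited table names rats without the replicate numbers of the labels. The paper describes no pairing of rats across groups, and replicate numbers alone would not make pairs. Of 448 alternatives to 28 results, 414 kept direction and side of the threshold; the causes of the other 34 were not tested. Shares passed the threshold under none. Groups of 3 rats and 67 to 364 nuclei of the cluster in 9 rats limit the precision.

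For Obese minus Lean, log odds of the share of all nuclei turned to -0.83 with at least 1000 UMIs and -1.65 with at most 1% mitochondrial UMIs, and ranged from -0.21 to 1.23 with 1 rat left out. The share of proximal tubule nuclei was 0.0258 on the arcsine scale and -0.94 to 0.97 with 1 rat left out. The difference in share of PST and PST(Spp1+) nuclei was -1.46 to 14.5 percentage points with 1 rat left out. For sGCact minus sGCstim, the share of all nuclei was -0.30 with edgeR and TMM, -0.18 with edgeR and the total, -1.57 with at least 1000 UMIs, -0.87 with at most 1% mitochondrial UMIs and -0.48 to 1.69 with 1 rat left out. The share of proximal tubule nuclei was -1.39 and -0.71 under these filters and -0.41 to 1.70 with 1 rat left out, and the share of both PST clusters -2.82 and -3.73 percentage points and -3.30 to 26.4. Over all alternatives the limma or edgeR adjusted p of the share of all nuclei was 0.119 to 0.939 for sGCact against Obese and 0.206 to 1.00 for sGCstim against Obese.

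For Obese minus Lean, the UMI difference was -0.77 with means, past the threshold like 5 of 24 clusters. The G2M difference between these groups lost its call with medians (0.0133), at least 1000 UMIs (0.0119, without RK7_4, which kept 1 nucleus) and at least 500 and under 1000 UMIs (0.00863, chosen after seeing the data), and was 0.0110 to 0.0163 with 1 rat left out. G2M differences from Obese turned to 0.000252 (sGCact) and 0.00260 (sGCstim) with at least 1000 UMIs, where RK7_4 and RK45_4, with 1 and 5 nuclei, fell under the minimum of 10 and dropped out, so that filter and rats changed together. The latter was 0.00472 at 500 to under 1000 UMIs and -0.00470 to 0.00406 with 1 rat left out, and the UMI difference of sGCact from Obese -0.23 to 0.077. The number of clusters passing for Obese minus Lean was 3 for the share of all nuclei and 1 to 9 over the alternatives, and 6 for the G2M score and 0 to 10.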
